A study of Mus musculus with 4 samples.

Results

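The splicing factor and hnRNP genes were described in 4 libraries of mouse cells labelled as T-helper 2 cells, together with the gene that overlaps each of them on the opposite DNA strand. Members were all genes whose symbol starts with Srsf, Snrp, Sf3a, Sf3b or Hnrnp, matched by Ensembl identifier, leaving out names with a dash or "ps". The rule found 53 of the 50600 genes in the count tables: 11 Srsf, 13 Snrp, 9 Sf3 and 20 Hnrnp genes. All but Snrpert, a processed pseudogene, are annotated as protein-coding. An opposite gene was any gene of the other strand that shared at least 1 exon base with a member, and 18 members had such a gene. The cells were primary cells of strain C57BL/6NJ with no genotype change or treatment named in the labels, in 1 group of biological replicates 1 to 4. All 4 share 1 donor identifier, and whether they came from separate mice is not stated, so the spread between them may be technical. The labels give age as unknown and sex as not collected, and link a differentiation protocol. They give no time point, while the headers of the count tables name a Th1 and Th2 series at 0 hours. With 1 group there was no comparison between conditions, and members were compared with their opposite genes, with each other and between libraries.

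Splicing removes introns from pre-mRNA. The Snrp genes encode proteins of the small nuclear ribonucleoproteins (snRNPs), among them the Sm proteins that form a ring on the spliceosomal RNAs. SF3a and SF3b are the protein complexes with which the U2 snRNP recognises the branch point. SR proteins (Srsf) bind exons and mostly promote their use, and hnRNP proteins coat nascent RNA and often oppose it. In T cells, Hnrnpl and Hnrnpll are known for the exon choice in Ptprc, which encodes CD45. Several SR and hnRNP genes carry ultraconserved exons through which they limit their own level.

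Exon sequence is shown for 3 members, because their own coding bases are also exon bases of an opposite gene that is not protein-coding and that received many more counts. Each is written on the member's strand from 5′ to 3′, on GRCm38, with capitals for the bases that the opposite gene's exons share. The transcript sequences came from GENCODE mouse release 21. The Srsf1 stretch is part of coding sequence on the plus strand, chr11:88047879-88048032, in the exon that encodes the start of the first RNA recognition motif, and 98 of its 154 bases lie in exons of Gm11508. The Srsf4 stretch, plus strand, chr4:131900265-131900504, is the 5′ end of a run of 805 coding bases that lie wholly in exons of Gm12992. It encodes part of the arginine and serine repeats that give SR proteins their name, and the letters AGCCGC occur 7 times in it. The Hnrnpd stretch, minus strand, chr5:99978444-99978624, opens with the start codon, and 151 of its 181 bases lie in exons of Gm17092. The capitals of Hnrnpd were 82.1% G and C, against 60.2% in Srsf1 and 60.8% in Srsf4.
Srsf1: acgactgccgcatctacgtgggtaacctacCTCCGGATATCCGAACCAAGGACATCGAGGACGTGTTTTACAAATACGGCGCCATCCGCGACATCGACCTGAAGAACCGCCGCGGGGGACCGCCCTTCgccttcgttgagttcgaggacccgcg
Srsf4: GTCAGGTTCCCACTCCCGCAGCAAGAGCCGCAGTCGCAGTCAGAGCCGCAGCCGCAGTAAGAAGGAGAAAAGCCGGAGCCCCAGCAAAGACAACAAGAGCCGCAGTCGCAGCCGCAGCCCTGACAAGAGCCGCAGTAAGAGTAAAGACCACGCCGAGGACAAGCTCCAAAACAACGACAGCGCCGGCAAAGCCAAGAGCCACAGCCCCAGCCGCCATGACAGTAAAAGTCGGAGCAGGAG
Hnrnpd: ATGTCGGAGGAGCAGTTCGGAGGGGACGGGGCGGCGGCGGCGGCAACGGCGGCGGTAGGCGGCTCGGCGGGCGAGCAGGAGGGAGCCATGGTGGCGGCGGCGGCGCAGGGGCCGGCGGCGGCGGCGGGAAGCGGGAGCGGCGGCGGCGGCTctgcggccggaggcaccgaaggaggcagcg

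The libraries held 2131288, 2351916, 1923157 and 1452053 counts in replicates 1 to 4, and the limit that a count of 0 allows, 3 counts, was 1.28 to 2.07 CPM, which relates a count to its library's sum. A count is a read pair that the authors assigned to a gene on its annotated strand, and in these tables most counts lay in genes with an exon overlap on the other strand. Genes without such an overlap held 10.4% to 12.4% of the counts of a library. Counts are therefore given as fragments on the annotated strand and were not read as transcript levels. The library kit is not given, so whether the authors' strand setting matches the libraries is not known, and the setting may be the wrong one for them. If it were, fragments counted for an opposite gene in the shared exons would belong to the member. Those counted for a member would come from the other strand, and in the shared exons would belong to the opposite gene. The levels, the detected genes and the density ratios below would then change meaning. Of the 9 T cell markers all were detected, and their summed TPM ranged from 401 to 563. TPM is the count divided by exon length and brought to the same sum in every library, and detected means a mean TPM of 1 or more. Of the 8 Th2 markers 3 were detected (summed TPM 20.9 to 29.6): Gata3, Il4 and Ptgdr2, at 5.87, 7.96 and 9.97 TPM. Gata3 and Ptgdr2 share exon bases with an opposite gene, Gm13256 and Ccdc86. Il5 and Il13 were at 0, and Il1rl1, Ccr4 and Ccr8 had 2, 1 and 1 counts over all libraries. The Th1 and Th17 lists were at 0 in every library. Of the other cell types, the B cell genes Cd79a and Ighm had 39.0 ± 3.91 and 22.7 ± 7.53 TPM, while Cd79b and Ms4a1 were at 0. The myeloid list (2 of 5 detected, summed TPM 112 to 131) had Lyz2 and Adgre1 at 0. The Treg (1 of 3, 194 to 205), CD8 T or NK (1 of 5, 0 to 3.80) and erythroid lists (1 of 3, 7.01 to 19.1) each had 1 detected member. The Treg sum was nearly all Foxp3 (199 ± 4.99 TPM), and the myeloid sum mostly Csf1r (107 ± 10.7 TPM). Both share exon bases with an opposite gene, Ccdc22 and Hmgxb3, as does the erythroid Alas2 with Apex2. Cd247, the highest T cell marker at 174 ± 31.2 TPM, shares exon bases with Pou2f1. The part of other cells in the values below was not tested, and in these bulk samples fewer cells of a type and less RNA per cell cannot be told apart.

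Of the 53 members, 49 were detected (92.5%), against 21.6% of all genes and 34% of protein-coding genes. The median member had 10.5 TPM and the median protein-coding gene 0.144 TPM. The hnRNP genes had the highest class median, 17.2 TPM, followed by the Srsf genes at 13.2, the Snrp genes at 3.22 and the Sf3 genes at 2.36. On the mean log2(TPM + 0.1) scale the classes stood at 3.78 ± 0.20 for Hnrnp, 3.16 ± 0.30 for Srsf, 2.22 ± 0.51 for Sf3 and 1.00 ± 0.34 for Snrp (SD, n = 4). The order of the Sf3 and Snrp classes thus differed between the median and the mean. All 20 Hnrnp and all 9 Sf3 genes were detected, as were 10 of 11 Srsf and 10 of 13 Snrp genes. The exceptions were Srsf12, Snrpc, Snrpn and Snrpert, and neither Snrpn nor Snrpert had a count in any library.

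**Figure D1:**
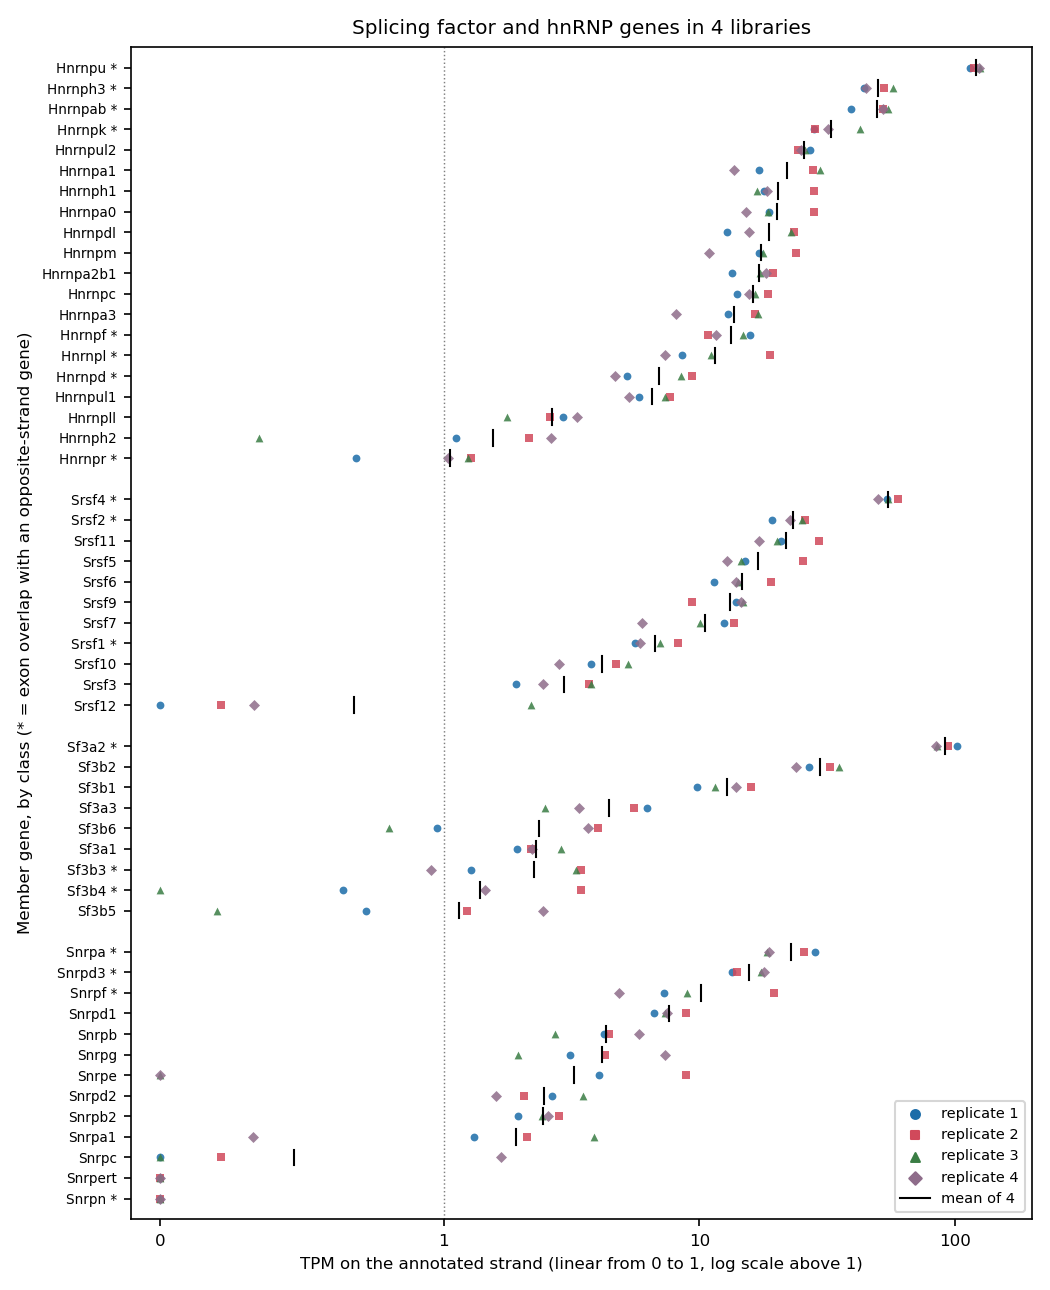
TPM of each of the 53 members in each library (points) and the mean of 4 libraries (black bar), on an axis that is linear from 0 to 1 and logarithmic above 1, with the dotted line at 1 TPM. Hnrnpu, Sf3a2 and Srsf4 lead at 120.5, 91.1 and 54.6 TPM, while Snrpn and Snrpert sit at 0; an asterisk marks exon overlap with an opposite-strand gene.

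Among the SR protein genes, Srsf4 had the highest mean TPM, 54.6 ± 3.97, with 276, 316, 253 and 171 counts in replicates 1 to 4. The 4 libraries lay close together, with a coefficient of variation (CV) of 5.69% in CPM. Its opposite gene Gm12992, a processed transcript at chr4:131899478-131920029, runs tail to tail with it, so that the 3′ ends overlap. The 2 genes share 1532 exon bases, 43.0% of the exons of Srsf4, and 895 of the bases are coding in Srsf4. Gm12992 had 4106, 3619, 3452 and 2448 counts, or 1737 ± 165 CPM. Per kb of exon it was 8.23 ± 0.91-fold denser than Srsf4 and denser in every library.

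Srsf2, an SR protein that acts in exon inclusion, had 82, 114, 97 and 64 counts, or 23.2 ± 3.00 TPM. It lies inside the span of Mettl23, which encodes a methyltransferase-like protein, and shares 460 exon bases with it. Mettl23 had 6385, 5572, 6156 and 3551 counts, so its density was 67.4 ± 13.7-fold that of Srsf2. The counts of this pair did not overlap, as was so for Srsf4 and Gm12992 and for other pairs below. Mettl23 lay at the 99.9th percentile of TPM among protein-coding genes. A further gene, Mfsd11, begins opposite the 5′ end of Srsf2 and shares 288 bases, all coding in Srsf2. Mfsd11 had 2499, 2630, 2378 and 1524 counts, a density 10.7 ± 1.42-fold that of Srsf2.

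Srsf1, which acts in splicing enhancement and mRNA export, had 46, 70, 52 and 32 counts, or 6.67 ± 1.21 TPM. Its opposite gene Gm11508, an antisense RNA gene at chr11:88011991-88048006, starts within the first coding exon of Srsf1, whose shared bases are shown in capitals above. Gm11508 had 989, 807, 782 and 504 counts. At 207 ± 53.6-fold, this was the pair with the largest mean density ratio among those formed with the largest overlap, within its SD of the next, Gm17092 over Hnrnpd. The other 8 Srsf genes had no exon overlap on the opposite strand. Of them Srsf11 had 21.8 ± 5.31 TPM (253, 369, 221 and 138 counts) and Srsf5 had 16.98 ± 5.76 TPM (86, 151, 76 and 49 counts). Replicate 2 was the highest for both. Srsf6, Srsf9 and Srsf7 followed with 14.6, 13.2 and 10.5 TPM, then Srsf10 with 4.14. Srsf3, a small SR protein, had 14, 28, 25 and 12 counts (2.95 ± 0.92 TPM). Srsf12 had 0, 1, 9 and 1 counts, so that replicate 3 held most of them.

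The snRNP protein genes had few counts: all 13 together summed to 118 ± 5.87 CPM. Snrpa, the U1 snRNP protein A, had 121, 113, 71 and 53 counts, or 22.8 ± 5.06 TPM, highest in replicate 1. It is head to head with BC024978, so that the 5′ ends overlap, over 327 bases. BC024978 had 832, 762, 613 and 414 counts, and its density was 2.95 ± 0.35-fold that of Snrpa. Snrpd3, an Sm protein, had 66, 72, 78 and 59 counts, or 15.7 ± 2.29 TPM. Its head-to-head neighbour Gucd1 shares 232 exon bases and had 26, 23, 20 and 32 counts. Here the order was turned, and Snrpd3 was 6.80 ± 2.08-fold denser than Gucd1, in every library.

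Snrpf, another Sm protein, had 9, 25, 10 and 4 counts, highest in replicate 2. It is a short gene, and Ccdc38, a coiled-coil gene running tail to tail, covers 567 bases or 65.9% of its exons, 129 of them coding. Ccdc38 had 1116, 1103, 1020 and 816 counts, and was 23.7 ± 13.2-fold denser. The lincRNA gene 4933408J17Rik overlaps its 5′ end over 168 bases and had 678, 806, 855 and 710 counts, 42.9 ± 28.3-fold denser. Beside these large SDs stand the low counts of Snrpf, 4 to 25 per library, while the opposite counts ranged from 816 to 1116 and from 678 to 855.

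Of the other Sm and snRNP genes, Snrpd1, Snrpb, Snrpg, Snrpe, Snrpd2, Snrpb2 and Snrpa1 had 7.58, 4.30, 4.16, 3.22, 2.46, 2.44 and 1.91 TPM, with 26 to 43 counts each over all 4 libraries. Snrpe had 8, 18, 0 and 0 counts, so its mean rested on replicates 1 and 2. Snrpc, the U1 protein C, had 0, 2, 0 and 10 counts, nearly all in replicate 4. Snrpg overlaps the span of the antisense gene Gm44941 without shared exon bases. Gm44941 had 35, 79, 43 and 44 counts against 7, 10, 4 and 11 in Snrpg. Snrpn, an imprinted Sm gene known from brain, was at 0, as was its opposite pseudogene Gm18908. The genes Gm38393 and Snurf, which share 589 and 216 exon bases with Snrpn on the same strand, were also at 0. Because a fragment that touches exons of more than 1 gene on a strand was not counted, these zeros hold for fragments unique to each gene. A count of 0 in a library allows up to 2.07 CPM.

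Of the SF3 genes, Sf3a2, a subunit of SF3a, had 388, 370, 295 and 214 counts, or 91.1 ± 8.26 TPM, the second-highest TPM of all members. It is head to head with Plekhj1, a pleckstrin homology domain gene at chr10:80796099-80798626, over 429 exon bases that are coding in neither gene. Plekhj1 had 17, 28, 19 and 14 counts, and Sf3a2 was 10.8 ± 2.73-fold denser, in every library. Sf3b3, a large subunit of SF3b, had the opposite order in the same arrangement. It had 20, 56, 47 and 10 counts, or 2.25 ± 1.31 TPM, while its head-to-head neighbour Cog4, a Golgi tethering complex gene, had 292, 319, 391 and 279. Cog4 was 38.1 ± 26.7-fold denser, and the counts of both genes did not overlap, as in other pairs. The shared stretch is 188 bases.

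Sf3b2 had 29.5 ± 5.11 TPM (124, 155, 148 and 74 counts), and Sf3b1, the subunit best known for mutation in leukaemias, had 12.8 ± 2.71 TPM (160, 269, 170 and 152 counts). Neither has exon overlap on the opposite strand, and no gene of the other strand lies within 5 kb of Sf3b1. Sf3a3 had 4.41, Sf3b6 2.36 and Sf3a1 2.30 TPM. Sf3b4 had 2, 11, 0 and 3 counts and its antisense neighbour Gm17690 had 13, 2, 16 and 5. Per kb of exon Gm17690 was denser in 3 of 4 libraries, but in replicate 4 only 1.04-fold, and with 0.5 counts added its log2 ratio was -0.03. Replicate 2 went the other way on both scales. The two-sided exact sign-flip permutation gave p = 0.75. Sf3b5 had 4, 7, 1 and 9 counts.

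Among the hnRNP genes, Hnrnpu, which binds scaffold DNA as well as RNA, had the highest TPM of all 53 members. Its counts were 1907, 2048, 1890 and 1377, or 120.5 ± 4.82 TPM, with a CV of 5.49%. Cox20, an assembly factor of cytochrome c oxidase, meets it tail to tail over 804 bases, which are 91.1% of the exons of Cox20 and only noncoding exon in Hnrnpu. Cox20 had 1104, 1097, 1158 and 642 counts. Hnrnpu thus had more counts in each library, while Cox20 was 7.203 ± 0.83-fold denser per kb, since Hnrnpu has 11599 exon bases.

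Hnrnpab, an A/B-type hnRNP, had 156, 216, 198 and 139 counts, or 49.5 ± 7.06 TPM. Its tail-to-tail neighbour Phykpl, a phospholyase of hydroxylysine breakdown at chr11:51584757-51604489, shares 809 bases and had 8747, 7613, 7955 and 5774 counts. That was the highest count of all 21 opposite genes, and a density 12.4 ± 2.57-fold that of Hnrnpab. Hnrnph3 had 200, 247, 235 and 136 counts, or 49.8 ± 6.25 TPM, and shares 115 coding bases with Rufy2, tail to tail. Rufy2 had 858, 783, 932 and 570 counts, but per kb was only 1.52 ± 0.20-fold denser.

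Hnrnpd (AUF1), known for binding AU-rich elements, had 55, 102, 81 and 33 counts, or 6.92 ± 2.32 TPM. The antisense gene Gm17092, at chr5:99977686-99978858 inside the span of Hnrnpd, lies over its first exon and shares 385 bases, 55.2% of its own exons. Gm17092 had 1030, 1250, 1302 and 972 counts, a density 202 ± 77.7-fold that of Hnrnpd, with the highest ratio in replicate 4. Hnrnpf, a G-tract binding protein, had 69, 49, 59 and 34 counts, or 13.3 ± 2.40 TPM, and 2 genes of unconfirmed type inside its span. These, 4933440N22Rik and Gm43863, had 458 ± 38.9 and 1519 ± 133 CPM against 26.8 ± 5.57 CPM for Hnrnpf. Their densities were 27.4 ± 5.39-fold and 148 ± 19.2-fold that of Hnrnpf. The lincRNA gene Gm27022, whose exons lie wholly in those of Hnrnpr, had 17, 15, 10 and 5 counts. Hnrnpr had more counts, 22, 42, 36 and 22, but spread over 22199 exon bases, so Gm27022 was 12.7 ± 7.71-fold denser.

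Hnrnpk, a poly(C)-binding protein, was the third member denser than its opposite gene. It had 227, 237, 311 and 172 counts, or 32.6 ± 6.67 TPM, and its head-to-head neighbour Rmi1, a gene of Holliday junction dissolution, had 3, 13, 6 and 3. The density of Hnrnpk was 31.7 ± 15.0-fold that of Rmi1, and the shared stretch is 53 bases. The CD45 regulator Hnrnpl had 73, 167, 86 and 42 counts, or 11.5 ± 5.19 TPM, with replicate 2 above the rest. The antisense gene Gm44702 inside it had 15, 13, 18 and 12 counts and was denser in 3 of 4 libraries (1.96 ± 0.87-fold), with replicate 2 the other way. The exact sign-flip permutation gave p = 0.25, two-sided. Hnrnpll, its paralogue with the same known target, had 49, 45, 27 and 37 counts, or 2.65 ± 0.65 TPM, a TPM below that of Hnrnpl in every library.

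The remaining hnRNP genes lack exon overlap. Hnrnpul2, Hnrnpa1, Hnrnph1, Hnrnpa0, Hnrnpdl, Hnrnpm, Hnrnpa2b1, Hnrnpc and Hnrnpa3 lay between 25.5 and 13.6 TPM, and neighbours in that order differed by less than the larger of their SDs. Hnrnpul1 had 6.54 TPM, and Hnrnph2 had 1.56 with 7, 14, 2 and 11 counts. Hnrnpa1, a main regulator of splice-site choice, had 47, 79, 74 and 25 counts. Its level is uncertain, since 17 other annotated genes, all pseudogenes, match its transcripts at 90% identity or more over at least 200 bases. Hnrnpa3 had 38 such near copies, Snrpc 8, Hnrnpf 7, Snrpa 6 and Srsf3 5. In all, 29 of 53 members had at least 1, and read pairs aligned to several places were not counted under the settings in the headers.

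Over all 18 members with exon overlap on the opposite strand, the opposite gene was denser in all 4 libraries in 12 (66.7%). This was so for 45.2% of the 4801 protein-coding genes with such a partner, and for 63.1% of the 3169 with a mean pair count of at least 20. At that same minimum 16 members' pairs remained, and the opposite gene was denser in 12. The share among members is thus near the background of genes with counts. The member was denser in all 4 libraries in 3 pairs (Sf3a2, Snrpd3 and Hnrnpk), against 22.8% of protein-coding genes and 30.5% at the count minimum. In the remaining pairs 2 were mixed and 1 was at 0. Without replicate 2 the opposite gene was denser in every library in 14 pairs, since Hnrnpl and Sf3b4 were mixed through that library alone by counts per kb. With 0.5 counts added Sf3b4 stayed mixed through replicate 4. For the 15 pairs of 1 direction the exact two-sided sign-flip permutation gave p = 0.125, the smallest that 4 libraries allow (2 of 16 sign patterns), and 0.142 after Benjamini-Hochberg adjustment over 17 pairs. The median log2 density ratio, opposite gene over member, was 2.93 ± 0.17 (SD over libraries), against 1.87 ± 0.04 for protein-coding genes. The latter covers all 4801 pairs, of which 3169 reached the count minimum, and was not computed at that minimum. The difference was therefore not read as a trait of the members. By arrangement, the opposite gene was denser in 5 of 5 tail-to-tail pairs, 3 of 7 head-to-head pairs and 3 of 5 pairs with the opposite gene inside the member. All 3 pairs in which the member was denser were head to head. Over protein-coding genes the opposite gene was denser in 860 of 1917 tail-to-tail pairs, 695 of 1592 head-to-head pairs and 542 of 1063 pairs with the opposite gene inside. Among these genes the named gene was denser in 600 tail-to-tail and 338 head-to-head pairs. Head to head was thus not the more common arrangement of such pairs there. These protein-coding pairs had no count minimum and include many with few or no counts. Their shares by arrangement are therefore not directly comparable with those of the members. The 21 opposite genes together held 8.13 ± 0.68-fold the counts of the 18 members they overlap, 14825 ± 1381 against 1824 ± 104 CPM. All 53 members together held 2879 ± 205 CPM.

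**Figure D2:**
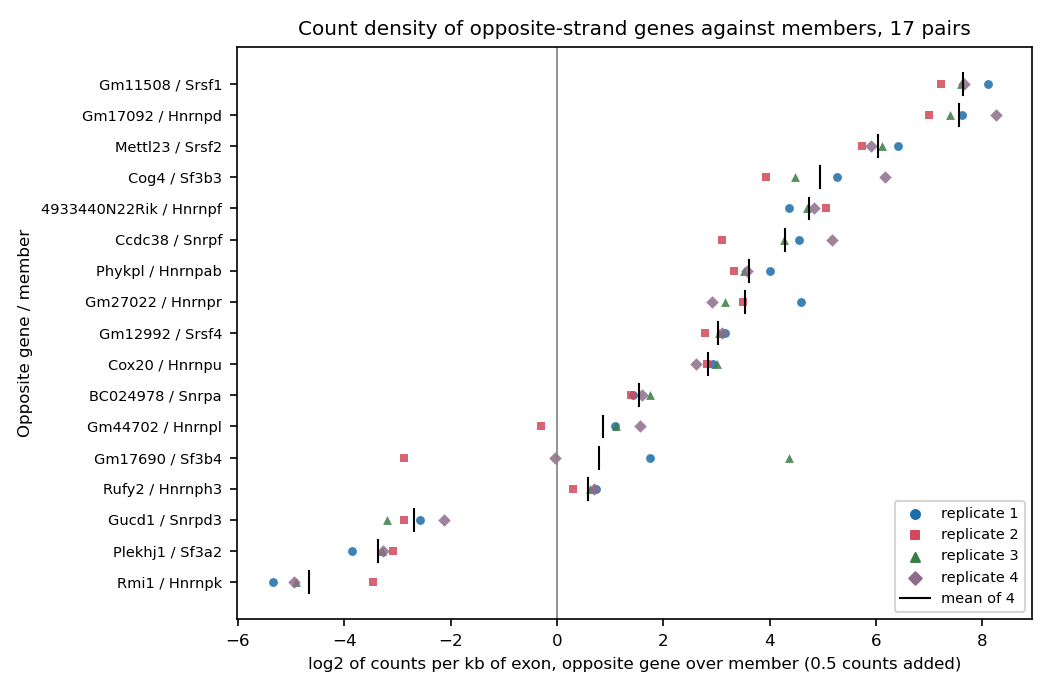
The log2 ratio of counts per kb of exon, opposite gene over member, for the 17 pairs with counts, formed with the opposite gene of largest overlap; points are libraries, black bars are means, and the grey line marks equal density. Gm11508 over Srsf1 and Gm17092 over Hnrnpd lie highest, while Gucd1, Plekhj1 and Rmi1 lie below 0 in all 4 libraries, and Gm17690 over Sf3b4 spans both sides.

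The spread between libraries was compared with that of genes of similar level, using the quasi-dispersion of edgeR. Of the 36 members with enough counts none was more variable than the trend at a Benjamini-Hochberg adjusted p of 0.05, against 0.278% of the 5755 genes tested. At an unadjusted p of 0.05 there were 2, Hnrnpl and Sf3b3, beside 279 of all 5755 genes (4.85%), so 2 of 36 is near the background. DESeq2 called 0 of 51 members as dispersion outliers. The share it called over all genes is not given here, so this count was not read as a trait of the members. The dispersion of Hnrnpl was 3.05 times its prior (edgeR, adjusted p = 0.898) and that of Sf3b3 2.72 times (edgeR, adjusted p = 0.989). Next came Srsf11, Hnrnpm and Srsf5 at 1.91, 1.74 and 1.72 times. Hnrnpm had 115, 166, 109 and 49 counts, and replicate 4 was the lowest in CPM as well, at 33.7. Hnrnpm shares 1169 exon bases with March2 on the same strand, and fragments touching exons of both genes were not counted. The smallest CVs among members with a mean count of at least 50 were 5.49% for Hnrnpu, 5.69% for Srsf4 and 7.66% for Hnrnpul2, which had 223, 206, 193 and 137 counts.

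Members without opposite exon overlap were mostly highest in replicates 2 and 3. Their summed CPM was 960, 1238, 1089 and 932, highest in replicate 2. Of the 23 such members with a mean count of at least 10, 10 were highest in replicate 2 and 9 in replicate 3. Of all 3156 protein-coding genes of that kind, 1306 were highest in replicate 2 and 953 in replicate 3, so these libraries led there too. The share of all counts that genes without exon overlap took was likewise highest in replicates 2 and 3, 12.4% and 12.2%, against 10.5% and 10.4%. Within these genes the members' share was 0.911%, 0.997%, 0.895% and 0.896%. The opposite genes went the other way in replicate 2, where their summed CPM was the lowest, 13076 against 14460 to 16262. The part of this shift in the values of single members was not tested.

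**Figure D3:**
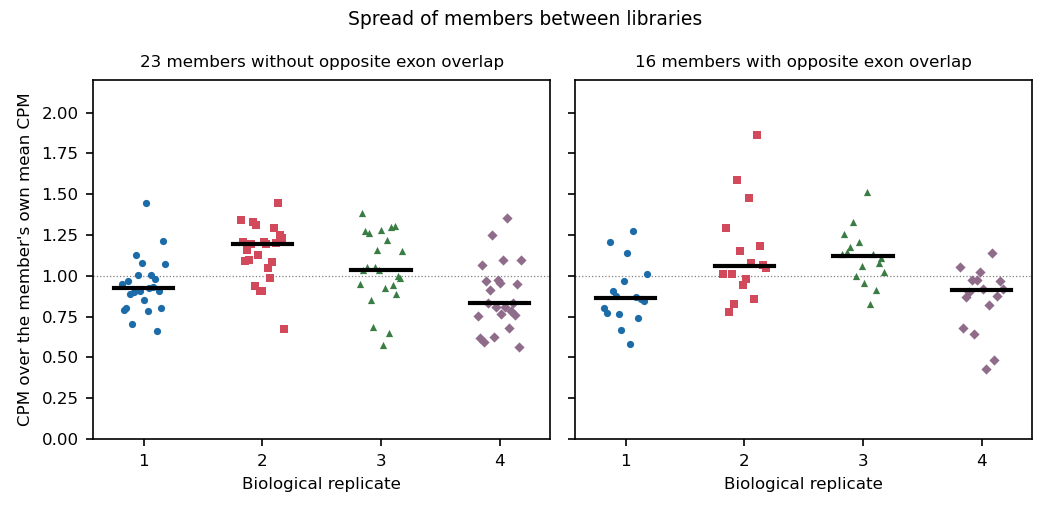
CPM of each member in each library divided by its own mean over the 4 libraries, for members with a mean count of at least 10, without (left) and with (right) exon overlap on the opposite strand; points are members and black bars medians. Left, the medians are 0.924, 1.20, 1.04 and 0.832 in replicates 1 to 4, and right, 0.864, 1.06, 1.12 and 0.911; replicate numbers carry no order.

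A further 109 splicing genes outside the naming rule, such as U2AF, the Prp proteins, SR kinases and Lsm proteins, were described in the same way. Of these 96 were detected (88.1%) and the median was 5.61 TPM. An opposite exon partner was annotated for 27 (24.8%), against 34.0% of members and 22.1% of protein-coding genes. The partner was denser in all 4 libraries for 19 of them and less dense for 7. The highest were Prpf39, a U1 snRNP factor, at 312 ± 45.6 TPM, Prpf38b at 125 ± 16.045, Srpk2, a kinase of SR proteins, at 74.3 ± 25.3 and Rbm10 at 62.8 ± 6.19. Prpf39, Srpk2 and Rbm10 share exon bases with Fkbp3, Kmt2e and Ndufb11 on the other strand. Prpf38b is free of opposite-strand genes within 5 kb. Its 1141, 1524, 1138 and 753 counts were more than those of every member but Hnrnpu. Srpk2 was the 1 gene of 82 tested that edgeR called more variable than the trend, with 1997, 1502, 1526 and 535 counts, lowest in replicate 4. Mbnl3 was at 0.0996 TPM and Rbfox2 at 0.

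Promoter sequence, from RefSeq (GRCm38.p6), covered 250 bases before to 50 after the start for 46 members. It is shown for Sf3a2 and Sf3b3, because both begin head to head with a neighbour and yet stood on opposite sides of it in density. Capitals mark the letters CCGGAAG (the ETS core) and GCGCA, any base, then GCGC (the NRF1 motif), searched on both strands, and in these windows their matches do not overlap. The Sf3a2 window, plus strand, chr10:80798485-80798784, has 1 match of each, and 142 of its 300 bases lie in exons of Plekhj1. The Sf3b3 window, minus strand, chr8:110846754-110847053, has 1 ETS core match and none of NRF1, and 89 of its bases lie in exons of Cog4. Snrpd3 and Hnrnpk, like Sf3a2 denser than a head-to-head neighbour, had neither motif in their windows. Srsf1 and Snrpa, like Sf3b3 less dense than theirs, had neither as well. A link between these motifs and density was not tested.
Sf3a2: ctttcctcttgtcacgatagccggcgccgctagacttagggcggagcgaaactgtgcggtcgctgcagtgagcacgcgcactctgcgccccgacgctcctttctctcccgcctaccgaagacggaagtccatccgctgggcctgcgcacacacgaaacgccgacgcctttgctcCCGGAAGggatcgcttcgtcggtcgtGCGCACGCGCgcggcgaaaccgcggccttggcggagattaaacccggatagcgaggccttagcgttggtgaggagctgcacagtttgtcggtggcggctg
Sf3b3: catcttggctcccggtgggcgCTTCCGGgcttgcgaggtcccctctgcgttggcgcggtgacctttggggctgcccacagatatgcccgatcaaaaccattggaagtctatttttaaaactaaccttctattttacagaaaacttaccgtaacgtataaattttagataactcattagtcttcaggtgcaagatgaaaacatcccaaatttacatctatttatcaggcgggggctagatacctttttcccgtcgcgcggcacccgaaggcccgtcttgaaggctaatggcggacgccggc

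The ETS core letters were found in 16 of 46 member promoters (34.8%), in 19.8% of 86 promoters of the other splicing genes and in 9.12% of 27025 promoters of the table. Among the Sf3 genes they were found in Sf3a1, Sf3a2, Sf3a3, Sf3b2, Sf3b3 and Sf3b6, and not in the window of Sf3b1. Sf3b4 and Sf3b5 had no match, and whether both had a window is not given here. A difference between classes was not tested. NRF1 letters were in 13.04% of members, 17.4% of the other splicing genes and 4.78% of all. The GC box GGGCGG was in 69.6%, 60.5% and 35.9%, CCAAT in 47.8%, 43.0% and 37.9%, and TATAAA in 13.04%, 5.81% and 14.2%, in the same order. The median G and C content of the windows was 60.2% in members and 52.7% in all, and its part in these shares was not tested.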

How the data were processed

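Gene counts of 4 libraries were analysed. The authors ran featureCounts 1.4.6-p4 on read pairs, per the file headers, over GENCODE mouse release 13 exons on mm10, with strand setting 1. Fragments touching several genes and multi-mapping reads were not counted under the settings the headers show. The deposited unit is raw counts, with exon length in bases beside it. The library kit and alignment settings are not given here by labels or headers. TPM and CPM were computed here.

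Symbols were matched for 50376 genes. Gene types and coding bases came from GENCODE release 21, in which 43 members had identical exons. Exon overlaps were found with bedtools 2.31.1. Where a member had several opposite genes, the pair used the largest overlap. Density is counts per kb of exon, with 0.5 counts added on the log2 scale. Fold values are means over libraries without it. Single pairs were tested by exact sign flips over 4 libraries. Spread used edgeR 4.0.16 in R 4.3.3 (filterByExpr, TMM, intercept only, robust quasi-likelihood fit, upper-tail F test). In simulated data of 5755 genes, 187 of 200 genes made 4-fold higher in 1 library were called and no unchanged gene. The changed genes all had a mean count of at least 50, and every gene was given the common dispersion. The simulation thus does not cover tested members with lower counts, such as Sf3b3, or dispersions that differ between genes. DESeq2 1.42.0 was an alternative. No library was a copy of another: chi-square per degree of freedom was 6.29 to 24.8 over the 6 pairs. Limits from counts cover counting error only.

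The members and lists were chosen with earlier results of these data known. Named by rule were, per class, the 4 members of highest and 2 of lowest TPM, members at 0, the 12 with the highest opposite CPM, the 5 most and 3 least variable, those denser than their opposite gene, Hnrnpl, Hnrnpll, and the 4 highest and 2 lowest other splicing genes. Other members were named after their values were seen. Signal tracks and alignments were not analysed here. The B cell marker list is reported in part.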

Additional observations from a re-analysis of the deposited data

Results flagged for a closer look

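In 2 of the 54 series of 4 values tested, 1 library stood apart from the others, and chance does so in about 1 in 20. Srsf12 with 0, 1, 9 and 1 counts and Snrpc with 0, 2, 0 and 10 are not among the 2. Members with few counts can thus have 1 library apart without being listed here. Srsf9 had 9.78 CPM in replicate 2, below the other libraries, with a gap of 0.832 of the whole range, just past the 95% limit of Dixon's test. Hnrnph1 had 103.75 CPM in replicate 2, above the others, with a gap of 0.882 of the range. Srsf9 had 33, 23, 32 and 23 counts and Hnrnph1 150, 244, 128 and 103 in replicates 1 to 4, and neither was called more variable than the trend (edgeR).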

How the results depend on the processing

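No paired analysis was possible because there was 1 group. The opposite gene was denser in every library in 12 of 18 pairs, in 4 of 4 where at least 50% of the exons of 1 gene overlapped, and in 6 of 9 where it was not protein-coding. The count was 12 to 14 when each replicate was left out. The median log2 ratio of 2.93 became 3.17 at 100 bases of overlap, 2.57 in CPM, 3.17 at a mean pair count of 20 and 3.84 for opposite genes that are not protein-coding (2.87 to 2.99 leaving out replicates). Detected were 49 of 53 members, 32 of the 35 without exon overlap, and 47 to 49 leaving out replicates. No member was more variable than the trend in any setting, and the share over all genes is given for the main edgeR setting alone. As a median over members the class levels were 3.74 for Srsf, 1.68 for Snrp, 1.61 for Sf3 and 4.07 for Hnrnp. In TMM-scaled CPM they were 4.52, 1.33, 3.65 and 5.57, a scale not divided by length. Without members with exon overlap they were 2.72 for Srsf, 0.52 for Snrp and 3.53 for Hnrnp. The Snrp level was 2.03 with a pseudocount of 1 TPM and 0.19 with 0.01 TPM, and 1.78 over the 11 members with a count, an alternative chosen after seeing the data. Leaving out replicates gave 3.06 to 3.26 for Srsf, 0.84 to 1.10 for Snrp, 2.02 to 2.42 for Sf3 and 3.69 to 3.84 for Hnrnp. At this depth 11 of 13 Snrp genes had under 50 counts over all libraries, so their levels rest on few fragments.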
